A study of Homo sapiens with 12 samples.

Results

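The genes whose response to selinexor differed between a pair of lymphoma cell lines are described here. For each gene, the difference of responses is the log2 fold change of selinexor over untreated in SU-DHL6 minus the same in OCI-LY3, so a positive value means a higher relative response in SU-DHL6. Every gene with counts high enough was tested, 16474 of the 58302 in the table, and all 12 of the 12 libraries entered the test. Many of the genes named below were picked by the size or adjusted p of their difference, and the lists were chosen with earlier results known.

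OCI-LY3 is an established line of diffuse large B-cell lymphoma that its labels call the activated B-cell type, and SU-DHL6 is an established line labelled as the germinal centre B-cell type. Both have the genotype WT in the labels, and each was grown untreated or with selinexor, with 3 libraries in each of the 4 groups. The series calls the libraries of a group biological triplicates and says nothing about separate cultures, so p-values measure the spread between these libraries, which may be technical. Selinexor was used at 300 and 100 nM and for 24 and 48 h according to the labels, which tie neither a dose nor a time to a library, so a difference of dose or time cannot be told apart from a difference between the lines, and 1 line stands for each lymphoma type.

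Selinexor binds XPO1 (exportin 1), the receptor that carries proteins with a leucine-rich export signal, among them inhibitors of NF-kB and FOXO factors, out of the nucleus through nuclear pores. XPO1 also takes part in the export of ribosomal subunits and of some RNAs. A difference of responses asks whether a drug moved a gene by the same factor in both lines, whatever the level from which each line started.

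Library totals lay between 14210200 and 16405842 counts. Replicates correlated at 0.981 to 0.986 over log2 CPM (read counts relative to the library total, which is scaled by TMM, a factor that sets most genes to no change). The B cell markers summed to between 2340 and 4029 CPM in the 4 groups. The T cell, myeloid, fibroblast and endothelial, and epithelial lists reached at most 67.9 CPM, in treated OCI-LY3. Activated B-cell type markers summed to 4426 to 4486 CPM in untreated OCI-LY3 and 861 to 990.0 CPM in untreated SU-DHL6, and germinal centre type markers to 151 to 156 and 701 to 726 CPM, so each line was higher for the markers of its labelled type. In bulk RNA, fewer cells of a kind and less RNA per cell cannot be told apart.

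Of the 16474 genes, 6072 (36.9%) had a difference of responses at an adjusted p under 0.05 in edgeR's quasi-likelihood test with Benjamini-Hochberg adjustment. SU-DHL6 was higher for 2798 (17.0%) and lower for 3274 (19.9%), and 3313 differed by at least 1 on the log2 scale. In OCI-LY3, 3664 genes rose (22.2%) and 3657 fell (22.2%). In SU-DHL6, 3365 rose (20.4%) and 3758 fell (22.8%). The lines moved 729 genes in opposite directions with OCI-LY3 up and SU-DHL6 down (4.43%), and 555 with OCI-LY3 down and SU-DHL6 up (3.37%). Among the genes called for the difference, 1045 rose and 883 fell in OCI-LY3 without a call in SU-DHL6, while 978 rose and 954 fell in SU-DHL6 without a call in OCI-LY3. In 715 genes both lines moved the same way by different amounts, and 213 were called in neither line.

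The lines also shared part of their response. Of 10725 genes called in at least 1 line, 2435 were called in the same direction in both and 1284 in opposite directions. Of the 2435, 1720 were not called for the difference. Over all genes tested, the responses of the lines correlated with Pearson's r of 0.23 and Spearman's coefficient of 0.19, and with Pearson's r of 0.31 over the 9268 genes whose average log2 CPM was 3 or more. These are descriptions across genes, which are not independent replicates, and the lines share no control library. The scale of comparison matters. With libraries scaled by their total counts in place of TMM, the median difference moved by 0.37 on the log2 scale, and 72.9% of calls had SU-DHL6 higher (4891, against 1817 lower) where TMM gave 46.1%. All 2798 higher genes were also called higher under total counts, and 1817 of the 3274 lower genes stayed lower. Directions given here are relative to the bulk of genes in each line.

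**Figure D1:**
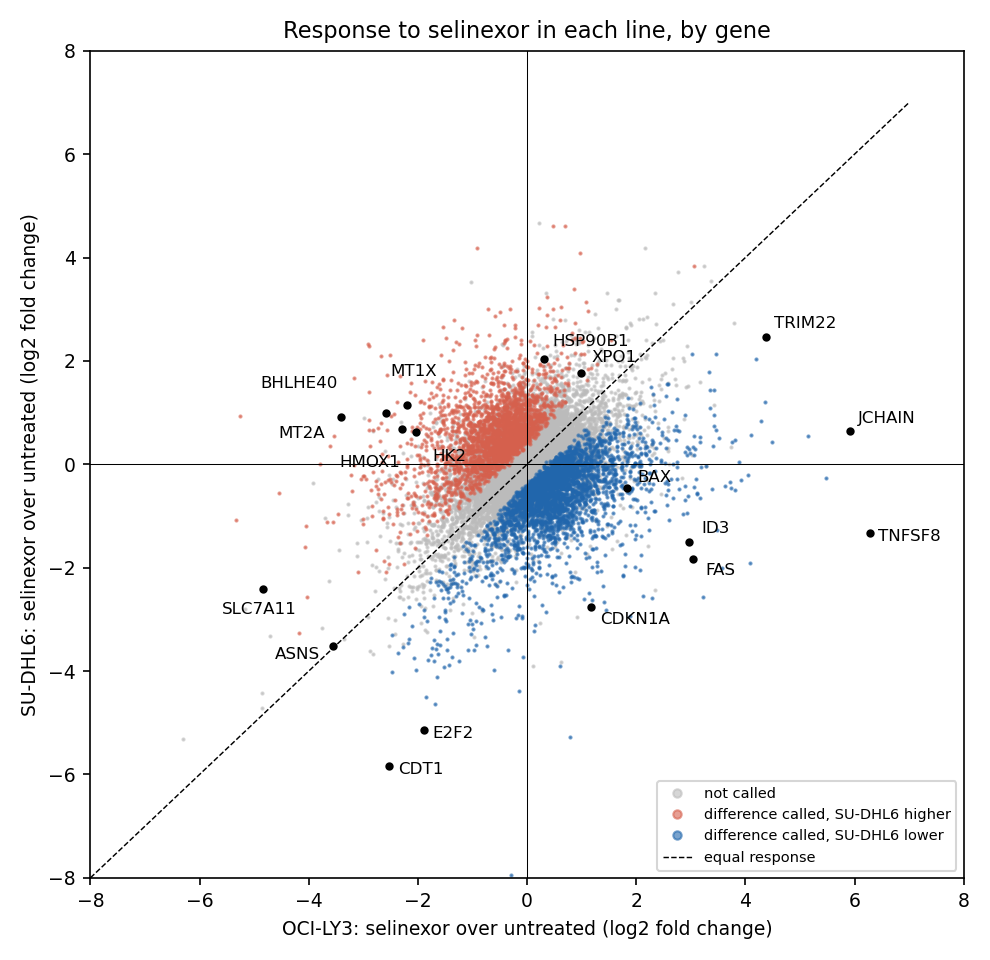
Each point is 1 gene, with its log2 fold change of selinexor over untreated in OCI-LY3 (x axis) and in SU-DHL6 (y axis). Colours mark genes called for the difference, the dashed line is an equal response, and genes with a group of 3 counts or fewer are left out. CDKN1A, FAS and ID3 lie at the lower right, up in OCI-LY3 and down in SU-DHL6. MT2A and BHLHE40 lie at the upper left, and ASNS lies close to the dashed line.

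A total of 49 lists of genes by function were compared. Lists with low medians included the cytosolic ribosomal proteins (-1.34) and the factors of origin licensing and the replication fork (-0.87). At the high end stood the metallothioneins and zinc transporters (3.16), the ribosome assembly factors (0.83) and the exportins and importins (0.68), against a median of -0.02 over all genes tested. These 5 medians kept their sign under total counts, RLE and upper-quartile scaling. Read against the 17.0% higher and 19.9% lower over all genes tested, 86.0% of the ribosomal proteins and 65.4% of the replication genes were lower in SU-DHL6, and 67.6% of the assembly factors and 60.9% of the exportins and importins were higher. Lists near the background were the interferon-stimulated genes, with 20.5% higher and 15.9% lower, and the RNA polymerase subunits, with 20.6% in each direction.

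**Figure D2:**
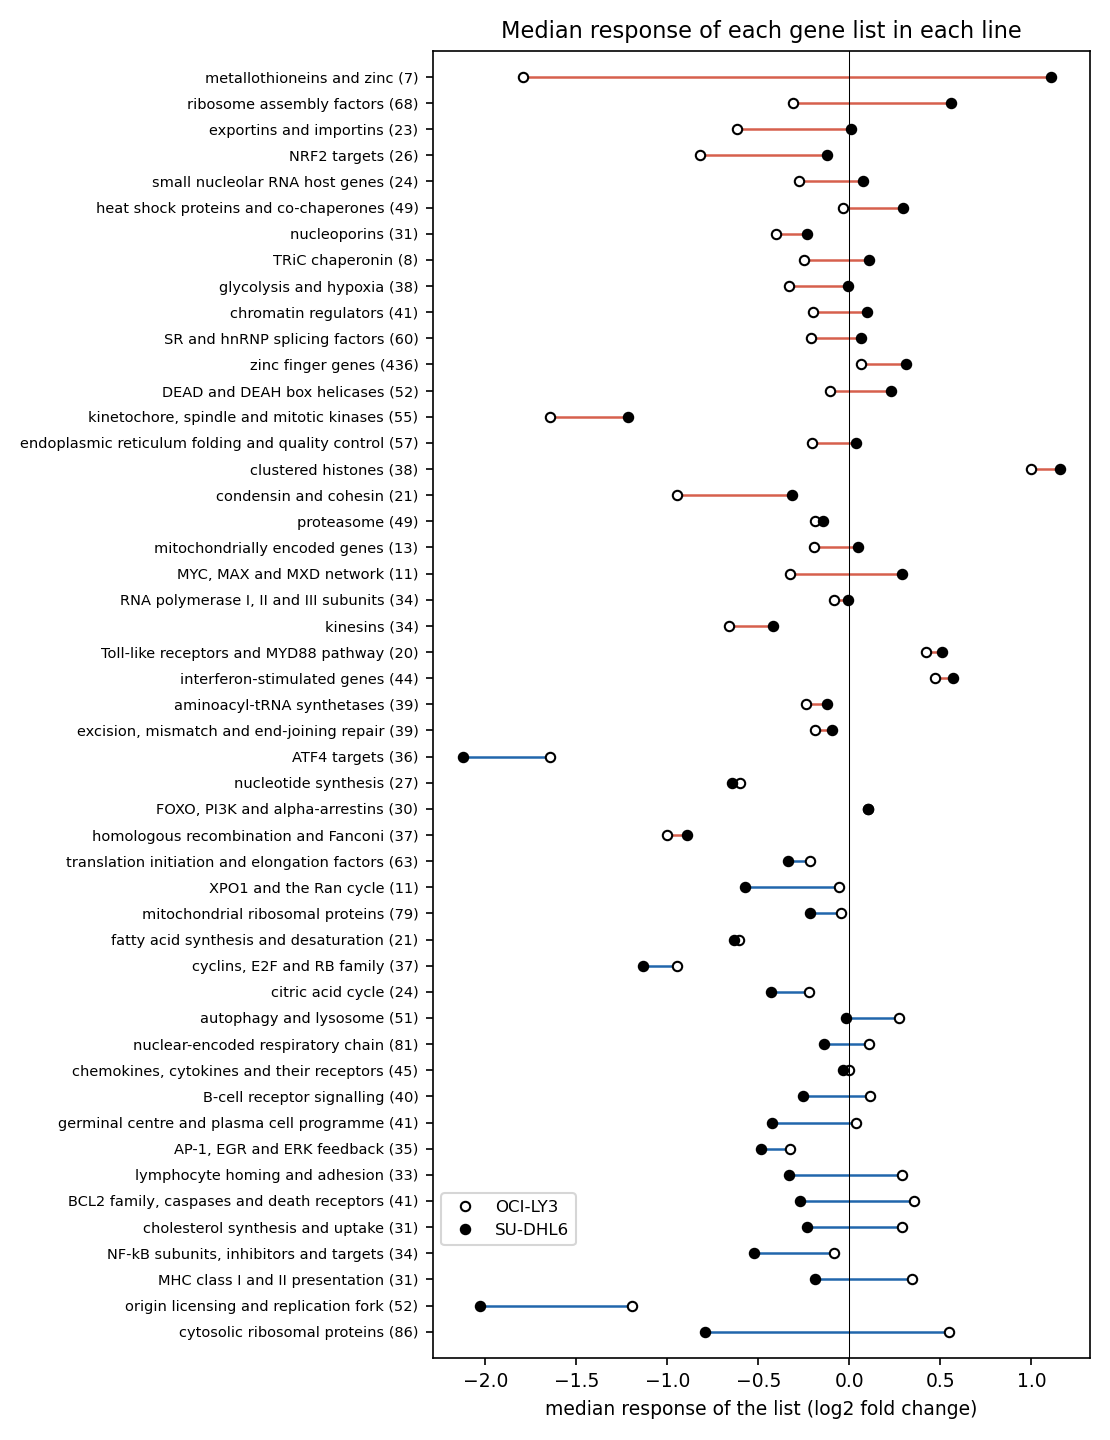
Each row is 1 gene list with its number of tested genes, the open circle is its median log2 fold change in OCI-LY3 and the filled circle that in SU-DHL6. Orange lines mark lists with the higher median in SU-DHL6 and blue lines those with the lower. Ribosomal proteins go from 0.54 in OCI-LY3 to -0.79 in SU-DHL6 and metallothioneins from -1.79 to 1.11.

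Ribosomal protein mRNAs moved in opposite directions in the lines. These mRNAs encode the proteins of the cytosolic ribosome, and as a class they carry a pyrimidine tract at their start through which their translation is controlled. Of 86 tested, 57 rose in OCI-LY3, 70 fell in SU-DHL6, and 52 did both. The difference was called for 74, every one of them lower in SU-DHL6, and 12 were not called. RPL27A, a protein of the large subunit (ENSG00000166441, chromosome 11, 8682411 to 8714759 on GRCh38), was at 933, 949 and 886 CPM in untreated and 1645, 1616 and 1631 CPM in treated OCI-LY3, and at 2035, 2054 and 2396 CPM in untreated and 1111, 975 and 941 CPM in treated SU-DHL6. Treated libraries lay above all untreated ones in OCI-LY3 and below all untreated ones in SU-DHL6, a difference of -1.92 ± 0.14 on the log2 scale (adjusted p = 2.92e-07). Values after ± are standard errors (SE) here. RPL37A had the lowest value in the list, -2.88 ± 0.56, with treated SU-DHL6 libraries at 664, 231 and 248 CPM, and RPL9 had the called value nearest to 0, -0.47 ± 0.14, a call that was lost when 1 untreated SU-DHL6 library was left out. In RPL3, the response lay in SU-DHL6 alone by the calls, at 0.20 ± 0.11 in OCI-LY3 and -1.78 ± 0.12 in SU-DHL6.

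The ribosomal protein genes took 7.88 to 8.38% of counts in untreated and 10.6 to 11.2% in treated OCI-LY3. In SU-DHL6 they took 10.1 to 10.96% untreated and 6.402 to 7.95% treated. Pseudogenes, many of them copies of these genes, moved with them, from 6.59 to 6.86% up to 8.16 to 8.45% in OCI-LY3 and from 7.69 to 8.41% down to 5.13 to 6.05% in SU-DHL6. How shared reads were counted is not given in the sources used here, and 64 of the 86 genes overlap another gene. Without overlapping genes the list median was -1.18.

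Elongation factors were measured beside the ribosomal proteins. EEF1A1, which brings aminoacyl-tRNA to the ribosome, was at 6781, 6037 and 5916 CPM in untreated and 8931, 9102 and 9974 CPM in treated OCI-LY3, and at 6913, 7431 and 7534 CPM in untreated and 3834, 3899 and 3754 CPM in treated SU-DHL6. Its levels rose in OCI-LY3 and fell in SU-DHL6 without overlap in either line, and the difference was -1.51 ± 0.13 (adjusted p = 1.27e-06). EEF2, the translocation factor, changed by 0.08 ± 0.11 in OCI-LY3, which was not called, and fell by 2.04 ± 0.12 in SU-DHL6. Initiation factors ran the other way in part: EIF5B, which joins the ribosomal subunits, went from 70.8, 50.7 and 54.8 to 171, 232 and 164 CPM in SU-DHL6 and differed by 1.96 ± 0.20. The whole list of 63 translation factors thus held 16 higher and 25 lower genes, with a median of -0.13 that turned to 0.24 under total counts. The noncoding gene GAS5, a host of small nucleolar RNAs whose own transcript carries the same start sequence as ribosomal protein mRNAs, differed by -1.77 ± 0.15.

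Factors that assemble ribosomes in the nucleolus showed the opposite pattern to the ribosomal proteins. Of 68 tested, 46 rose in SU-DHL6 and 31 fell in OCI-LY3, 23 of them both. SU-DHL6 was higher for 46 and lower for 3. NCL, nucleolin, a major nucleolar protein (ENSG00000115053, chromosome 2, 231453531 to 231483641), was at 670.2, 642 and 638 CPM in untreated and 432, 411 and 449 CPM in treated OCI-LY3, and at 618, 516 and 557 CPM in untreated and 953, 1031 and 929 CPM in treated SU-DHL6. The libraries of each line fell into separate ranges with and without drug, and the difference was 1.38 ± 0.13 (adjusted p = 3.06e-06). NOP58, a core protein of box C/D small nucleolar particles, was at 93.4, 96.9 and 96.2 CPM in untreated and 56.9, 57.3 and 60.6 CPM in treated OCI-LY3, and at 72.98, 59.4 and 62.5 CPM in untreated and 129, 143 and 116 CPM in treated SU-DHL6. Its difference was 1.70 ± 0.15, again with no overlap in either line. LYAR, a nucleolar regulator of growth, stood highest in the list at 2.07 ± 0.20, and FTSJ3, an RNA methyltransferase of subunit assembly, lowest at -0.55 ± 0.11, a call lost under total counts. FBL, fibrillarin, fell in both lines, by 0.88 ± 0.15 in OCI-LY3 and 0.85 ± 0.15 in SU-DHL6, and its difference of 0.03 ± 0.21 was not called. ESF1, a factor of early ribosomal RNA processing, fell from 13.6, 15.6 and 14.8 to 6.29, 6.69 and 7.02 CPM in OCI-LY3 and rose from 6.10, 4.66 and 5.27 to 16.9, 26.8 and 20.00 CPM in SU-DHL6.

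The promoters of the assembly factors often held an E box, CACGTG, the letters bound by MYC and related factors. It was found in 22 of 58 promoters of this list (37.9%), against 7.44% of all 27305 RefSeq promoters of the same length (250 bases before the start and 50 after, GRCh38.p14, both strands) and 10.35% of the 10490 promoters of tested genes. Among ribosomal protein promoters, 4 of 68 held it (5.88%). From part of the list, 2 called members that hold the letters in the 200 bases before the start were picked by adjusted p. These bases are shown for UTP20 (chr12:101279905-101280104, plus strand) and NOL8 (chr9:92325351-92325550, minus strand), with the E box in capitals. A RefSeq start can lie inside the bounds of the gene in the table, which span all its transcripts.
UTP20: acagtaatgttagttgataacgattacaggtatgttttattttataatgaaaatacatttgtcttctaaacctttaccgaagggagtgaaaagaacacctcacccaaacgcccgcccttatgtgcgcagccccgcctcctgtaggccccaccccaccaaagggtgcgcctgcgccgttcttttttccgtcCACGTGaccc
NOL8: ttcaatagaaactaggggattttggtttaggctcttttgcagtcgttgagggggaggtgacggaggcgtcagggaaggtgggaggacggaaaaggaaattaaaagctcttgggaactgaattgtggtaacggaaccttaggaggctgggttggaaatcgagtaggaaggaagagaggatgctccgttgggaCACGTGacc
UTP20, part of the small-subunit processome, fell by 0.42 ± 0.13 in OCI-LY3 and rose by 1.12 ± 0.13 in SU-DHL6. NOL8, a nucleolar protein that overlaps another gene, changed by 0.02 ± 0.17 in OCI-LY3, which was not called, and rose by 1.64 ± 0.17 in SU-DHL6. A match describes the letters and says nothing of binding. MYC itself (ENSG00000136997) differed too much between replicates to be compared. It was at 18.1, 164 and 161 CPM in untreated and 12.7, 152 and 11.9 CPM in treated OCI-LY3, replicates more than 10-fold apart, and at 8.003, 8.02 and 7.80 and 15.7, 8.86 and 8.61 CPM in SU-DHL6. Its difference was 1.43 ± 1.58, not called (adjusted p = 0.532).

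Differences also followed base composition and length. Over 8392 genes whose average log2 CPM was 3 or more in both lines, the difference had a Spearman correlation of -0.41 with the GC percent and 0.28 with the length of each gene's longest transcript in GENCODE 29. The median difference was 0.51 in the lowest of 10 equal groups of genes by GC and -0.41 in the highest, and -0.48 in the shortest of 10 groups by length against 0.36 in the longest. GC percent went with the SU-DHL6 response (Spearman -0.37) more than with the OCI-LY3 response (Spearman 0.14). With offsets for both properties fitted per library, 2841 genes were higher and 3308 lower, the ribosomal protein median was -1.25 and that of the assembly factors 0.82. All these genes share the 12 libraries, and no cause of the trend was tested.

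**Figure D3:**
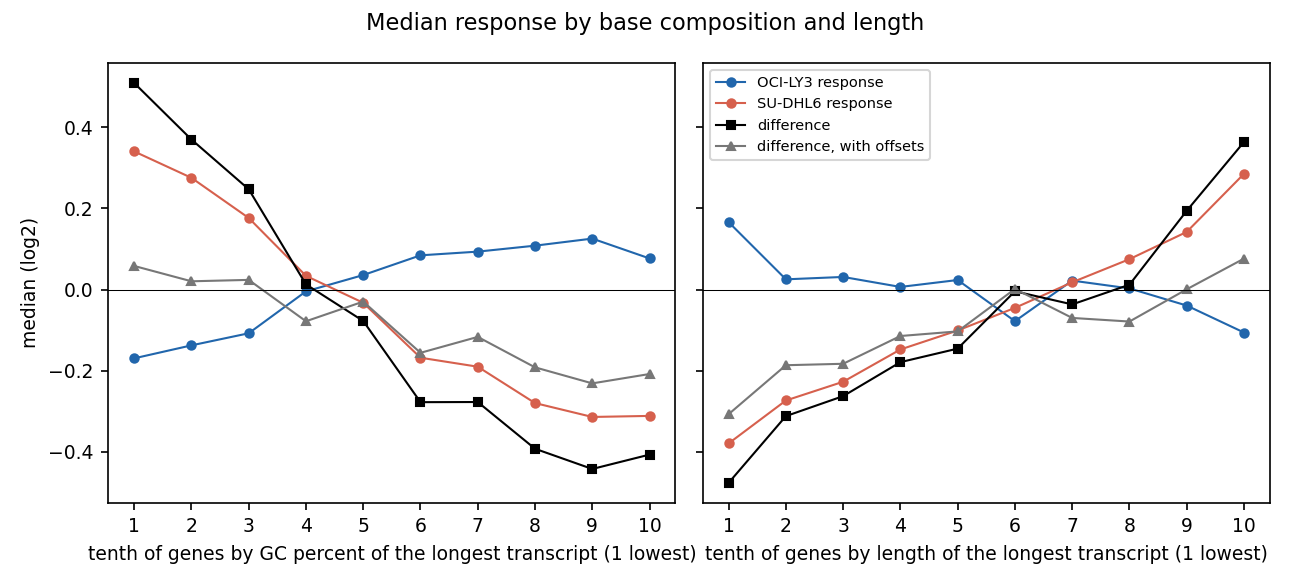
Genes were put in 10 groups by GC percent (left) or length (right) of their longest transcript, from 1 (lowest) to 10 (highest), and each point is the median log2 response or difference of a group. The black squares fall from 0.51 to -0.41 with GC and rise from -0.48 to 0.36 with length. The grey triangles, with offsets for both, run from 0.06 to -0.21 and from -0.31 to 0.08.

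Several genes of cell death and cell cycle arrest rose in OCI-LY3 and fell in SU-DHL6, 7 of them in the list of cell death genes. Of this list of 41 BCL2 family, caspase and death receptor genes, 18 rose and 5 fell in OCI-LY3, and 9 rose and 13 fell in SU-DHL6. The difference was called lower in SU-DHL6 for 18 and higher for 4, with a median of -0.54. CDKN1A, the cell cycle inhibitor p21 (ENSG00000124762, chromosome 6, 36676460 to 36687339), was at 217, 219 and 221 CPM in untreated and 516, 512 and 459.9 CPM in treated OCI-LY3, and at 57.5, 65.3 and 64.4 CPM in untreated and 10.02, 9.95 and 7.49 CPM in treated SU-DHL6. No treated library overlapped an untreated one, upward in OCI-LY3 and downward in SU-DHL6, and the difference was -3.95 ± 0.16 (adjusted p = 4.63e-09).

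BAX, a pore-forming protein of mitochondrial cell death (ENSG00000087088, chromosome 19, 48954815 to 48961798), was at 128, 137 and 132 CPM in untreated and 489.5, 486 and 430.4 CPM in treated OCI-LY3, and at 85.7, 116 and 116 CPM in untreated and 84.3, 70.3 and 76.6 CPM in treated SU-DHL6. It rose clear of the untreated range in OCI-LY3 and fell below it in SU-DHL6, a difference of -2.29 ± 0.17. Some other death genes went with it, while 4 members of the list were called higher in SU-DHL6, with BCL2L11 highest at 1.35. PMAIP1 and BBC3, BH3-only activators of cell death, differed by -3.04 ± 0.17 and -2.08 ± 0.27, and both rose in OCI-LY3 and fell in SU-DHL6. FAS, a death receptor, had the lowest called value among members with no group of 3 counts or fewer, -4.87 ± 0.52. It went from 2.02, 1.68 and 2.20 to 20.9, 14.4 and 13.4 CPM in OCI-LY3 and from 1.49, 1.43 and 0.578 to 0.332, 0.486 and 0.160 CPM in SU-DHL6. The DNA damage genes DDB2 (-2.46 ± 0.18) and GADD45A (-1.54 ± 0.26) also moved in opposite directions in the lines. MDM2, a ubiquitin ligase, rose by 0.93 ± 0.13 in OCI-LY3 and had an uncalled change of -0.24 ± 0.13 in SU-DHL6, with a called difference of -1.17 ± 0.19. ZMAT3, an RNA-binding protein, rose from 90.1, 81.2 and 83.6 to 339.7, 351 and 383 CPM in OCI-LY3 and was at 23.3, 16.4 and 19.6 and 21.9, 27.3 and 24.8 CPM in SU-DHL6, where the change was not called.

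MCL1, a survival protein of the list, rose by 0.60 ± 0.09 in OCI-LY3 and fell by 0.40 ± 0.09 in SU-DHL6. BCL2, the survival protein for which the family is named, rose in both lines, by 0.71 ± 0.09 and 0.79 ± 0.09, and its difference of 0.07 ± 0.13 was not called (adjusted p = 0.705).

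**Figure D4:**
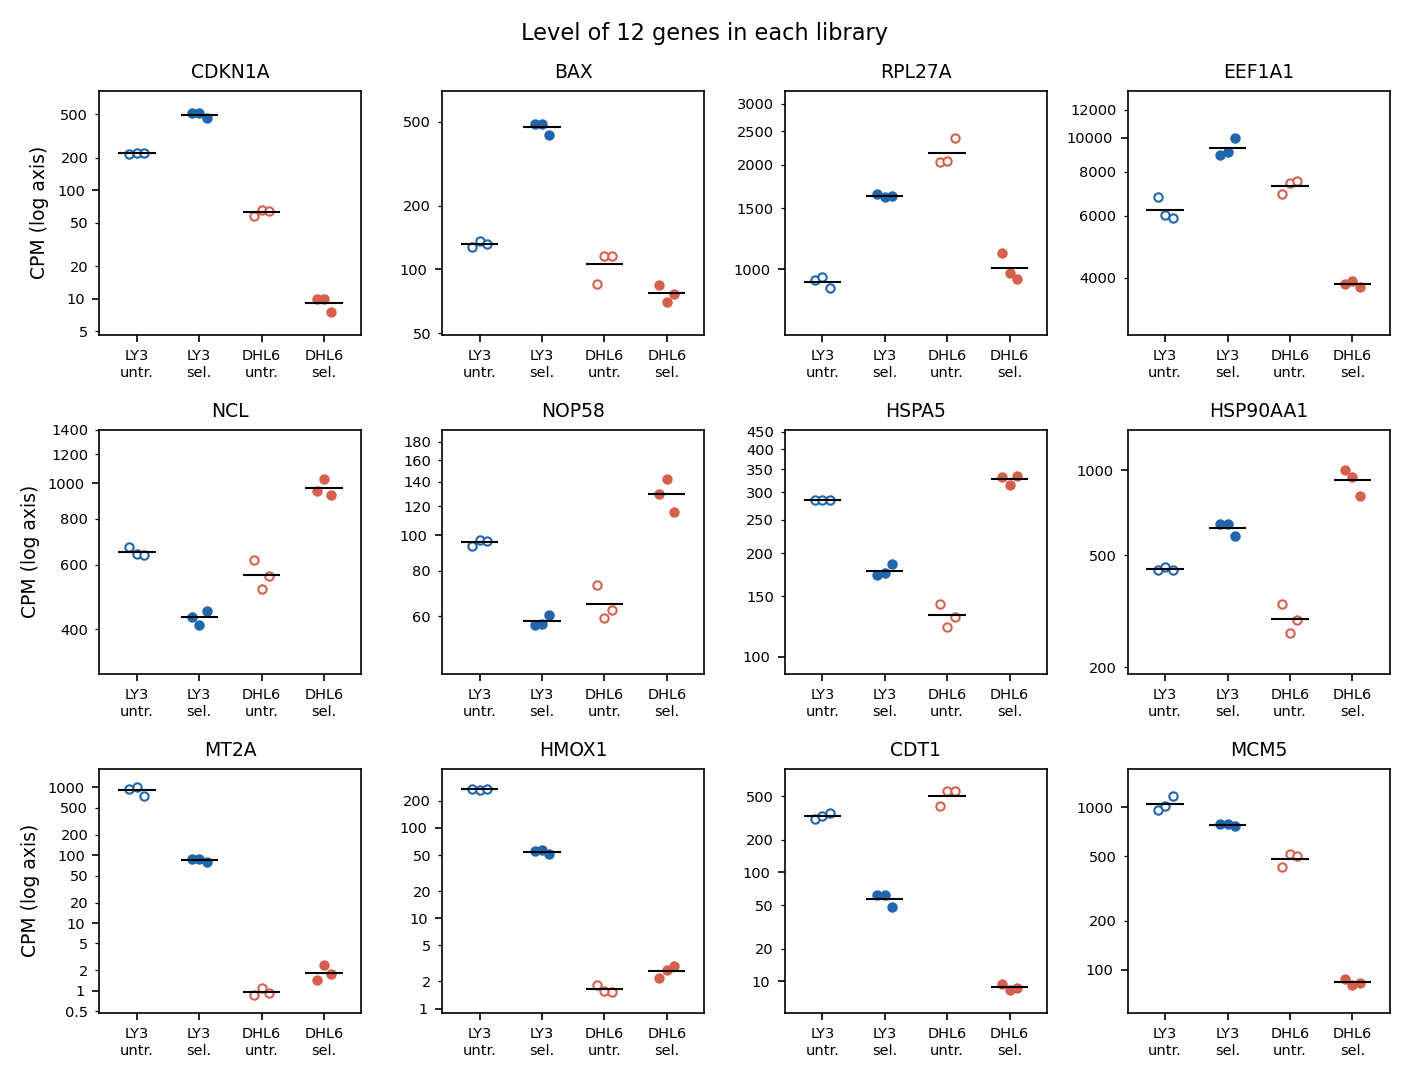
Each panel is 1 gene, with CPM on a log axis in the 3 libraries of each group (blue for OCI-LY3, orange for SU-DHL6, open for untreated, filled for selinexor) and a bar at the group mean. CDKN1A, BAX, RPL27A and EEF1A1 go up in OCI-LY3 and down in SU-DHL6. NCL, NOP58, HSPA5, MT2A and HMOX1 go the other way, HSP90AA1 goes up in both, and CDT1 and MCM5 go down in both and further in SU-DHL6.

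Genes that license origins and build the replication fork fell in both lines, and further in SU-DHL6. Of 52 tested, 45 fell in each line. The median was -1.19 in OCI-LY3 and -2.03 in SU-DHL6, and the difference was lower in SU-DHL6 for 34 and higher for 2. CDT1, which loads the replicative helicase at origins (ENSG00000167513, chromosome 16, 88803213 to 88809258), was at 307, 327 and 349 CPM in untreated and 61.96, 61.4 and 47.8 CPM in treated OCI-LY3, and at 406, 559 and 552 CPM in untreated and 9.52, 8.27 and 8.72 CPM in treated SU-DHL6. The untreated ranges of the lines were near each other, while the treated SU-DHL6 libraries lay far below the treated OCI-LY3 ones, a difference of -3.32 ± 0.20 (adjusted p = 6.89e-08).

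MCM5, a subunit of that helicase, was at 959, 1022 and 1166 CPM in untreated and 791, 786 and 762 CPM in treated OCI-LY3, and at 430.3, 515 and 502 CPM in untreated and 87.2, 80.7 and 82.6 CPM in treated SU-DHL6. The fall was 0.43 ± 0.10 on the log2 scale in OCI-LY3 and 2.53 ± 0.10 in SU-DHL6, and neither line's ranges overlapped. PCNA, the sliding clamp of the polymerases, fell by 0.81 ± 0.10 and 2.81 ± 0.11, and TK1, thymidine kinase, by 1.69 ± 0.11 and 4.64 ± 0.13. E2F2, a transcription factor of S phase genes, fell from 39.5, 43.2 and 44.4 to 11.5, 11.96 and 10.9 CPM in OCI-LY3 and from 111, 132 and 124 to 3.05, 3.95 and 3.37 CPM in SU-DHL6. DBF4, the activator of the CDC7 kinase, was the highest of the list: it fell by 1.41 ± 0.19 in OCI-LY3, changed by -0.02 ± 0.18 in SU-DHL6 (not called), and differed by 1.38 ± 0.26.

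E2F sites were frequent in the promoters of these genes. The letters searched were TTTGGCGC, TTTCCCGC and TTTGGCGG on both strands. Of 45 promoters of the list, 23 held one (51.1%), against 2.95% of all RefSeq promoters and 4.74% of those of tested genes. Among promoters of called genes, 5.83% of those lower in SU-DHL6 and 4.01% of those higher held one. From part of the list, 2 called members that hold a site in the 200 bases before the start were picked by adjusted p. These bases are shown for CDT1 (chr16:88803589-88803788, plus strand) and CDC45 (chr22:19479720-19479919, plus strand), with the sites in capitals.
CDT1: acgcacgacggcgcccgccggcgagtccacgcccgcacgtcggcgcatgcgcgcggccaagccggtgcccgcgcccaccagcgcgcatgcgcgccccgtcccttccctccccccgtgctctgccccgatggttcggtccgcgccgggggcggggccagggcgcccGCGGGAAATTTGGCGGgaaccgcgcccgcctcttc
CDC45: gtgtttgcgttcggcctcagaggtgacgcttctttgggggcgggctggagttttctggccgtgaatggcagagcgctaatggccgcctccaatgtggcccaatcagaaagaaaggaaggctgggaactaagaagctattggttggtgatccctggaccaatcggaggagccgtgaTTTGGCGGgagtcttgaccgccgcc
CDC45, which joins the MCM ring to form the active helicase, fell from 85.2, 91.6 and 91.8 to 24.8, 22.5 and 27.3 CPM in OCI-LY3 and from 44.4, 42.6 and 50.9 to 1.72, 2.43 and 1.87 CPM in SU-DHL6. Its log2 difference was -2.66 ± 0.19, yet the loss in CPM was larger in OCI-LY3, which started higher. It is 1 of 18 among the 320 genes named by rule whose difference changes sign between the log2 and the linear scale.

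Mitotic genes fell in both lines too, with differences in either direction. Of 55 kinetochore, spindle and mitotic kinase genes, 49 fell in OCI-LY3 and 43 in SU-DHL6. SU-DHL6 was higher for 18 and lower for 9, with a median of 0.15 that turned to -0.19 without overlapping genes. CENPE, a kinetochore motor, was at 21.1, 21.8 and 23.1 CPM in untreated and 2.10, 2.26 and 1.28 CPM in treated OCI-LY3, and at 9.83, 6.28 and 7.51 CPM in untreated and 8.14, 17.2 and 8.98 CPM in treated SU-DHL6. It fell below every untreated library in OCI-LY3 and overlapped in SU-DHL6, a difference of 4.09 ± 0.41 (adjusted p = 6.52e-06). In treated SU-DHL6, 1 library at 17.2 CPM stood above its replicates. CENPF, another large kinetochore protein, differed by 2.69 ± 0.28, and SMC4, a core subunit of condensin, by 2.40 ± 0.19 with a fall in OCI-LY3 and a rise in SU-DHL6. SPC25, a small NDC80 complex subunit, had the lowest called value, -1.35 ± 0.21. CDK6, a G1 kinase, fell by 1.60 ± 0.12 in OCI-LY3 and rose by 0.65 ± 0.11 in SU-DHL6.

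**Figure D5:**
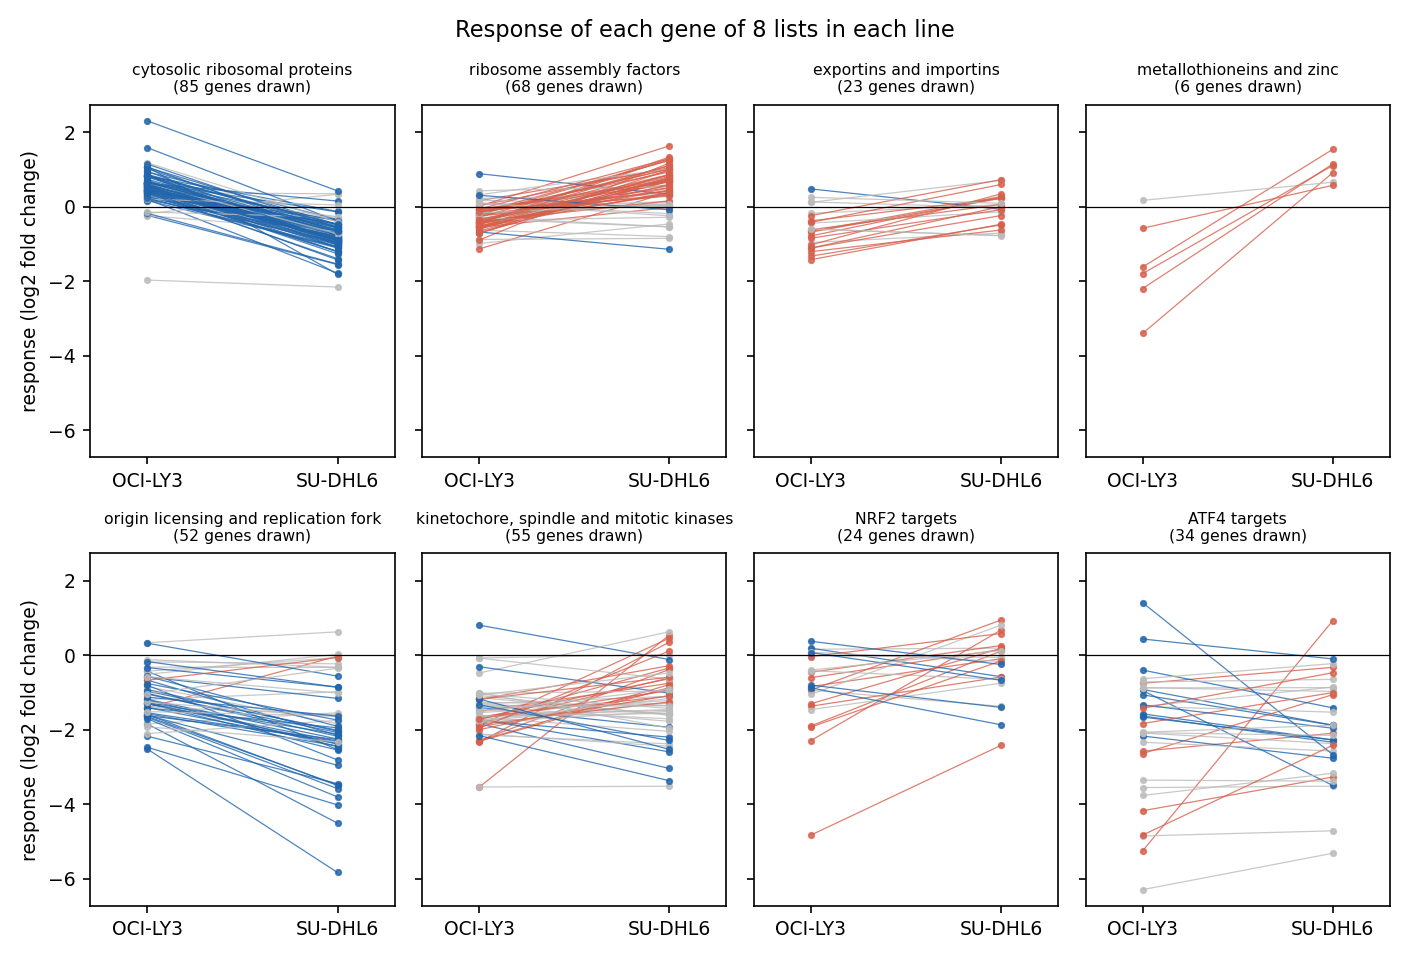
Each line joins the log2 fold change of 1 gene in OCI-LY3 (left) and SU-DHL6 (right), for 8 lists. Orange marks a called difference with SU-DHL6 higher, blue one with SU-DHL6 lower and grey no call, and genes with a group of 3 counts or fewer are left out. Ribosomal proteins slope down and assembly factors and metallothioneins slope up across 0, replication genes slope down below 0, and ATF4 targets lie below 0 at both ends.

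In the transport machinery that selinexor acts on, XPO1 rose in both lines and more in SU-DHL6, by 0.78 ± 0.18 (adjusted p = 0.00325). Most other carriers fell in OCI-LY3. Of 23 exportins and importins, 16 fell and 1 rose in OCI-LY3, while 7 fell and 3 rose in SU-DHL6. The difference was higher in SU-DHL6 for 14 and lower for 1. KPNA3, an importin alpha, was at 61.5, 61.7 and 60.4 CPM in untreated and 31.1, 29.9 and 29.4 CPM in treated OCI-LY3, and at 60.6, 45.7 and 49.9 CPM in untreated and 66.01, 64.97 and 67.96 CPM in treated SU-DHL6. Its OCI-LY3 levels fell clear of the untreated range, its SU-DHL6 levels rose just above it, and it had the highest value of the list, 1.37 ± 0.15. CSE1L, which returns importin alpha to the cytoplasm, fell by 0.68 ± 0.12 in OCI-LY3 and changed by 0.23 ± 0.12 in SU-DHL6, which was not called. IPO13 was the single lower member, at -0.55 ± 0.16, a call lost under total counts.

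Of the pore proteins, 11 of 31 were higher in SU-DHL6 (35.5%) and 5 lower (16.1%), against 17.0% and 19.9% over all genes tested. TPR, which forms the filaments of the nuclear basket, fell from 110.3, 108 and 98.6 to 71.3, 83.02 and 78.1 CPM in OCI-LY3 and rose from 73.6, 48.97 and 59.1 to 167, 246 and 188 CPM in SU-DHL6. RANBP2, of the cytoplasmic filaments, rose by 1.48 ± 0.16 in SU-DHL6 and changed by 0.31 ± 0.16 in OCI-LY3, which was not called. RANBP3, a cofactor of XPO1, ran the other way with -1.21 ± 0.14. RNA-processing factors had more members higher in SU-DHL6 too, 18 of 52 DEAD and DEAH box helicases against 0 lower, and 25 of 60 SR and hnRNP splicing factors against 7 lower. DHX29, a helicase of translation initiation, led the helicases at 1.85 ± 0.23, and HNRNPH2, a splicing regulator, its list at 1.16 ± 0.14.

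Chaperone mRNAs with a called difference were more often higher than lower in SU-DHL6. HSPA5, the main chaperone of the endoplasmic reticulum (ENSG00000044574, chromosome 9, 125234853 to 125241330), was at 285, 285 and 286 CPM in untreated and 173, 175 and 186 CPM in treated OCI-LY3, and at 143, 122 and 131 CPM in untreated and 333, 315 and 334 CPM in treated SU-DHL6. It fell in OCI-LY3 and rose in SU-DHL6 with no overlap in either line, a difference of 1.995 ± 0.12 (adjusted p = 7.21e-08). HSP90AA1, the inducible cytosolic HSP90, was at 444, 452 and 444 CPM in untreated and 647, 646 and 583 CPM in treated OCI-LY3, and at 335, 264 and 293 CPM in untreated and 1004, 946 and 812 CPM in treated SU-DHL6. Here both lines rose clear of their untreated ranges, by 0.49 ± 0.11 and 1.63 ± 0.11, and the difference was 1.15 ± 0.15. HSPH1, an exchange factor of HSP70, rose in both lines and differed by 1.12 ± 0.15. HSPA8, the constitutive HSP70, fell by 0.35 ± 0.12 in OCI-LY3 and rose by 0.81 ± 0.12 in SU-DHL6.

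In all, 21 of 49 cytosolic chaperones were higher in SU-DHL6 and 9 lower, with a median of 0.48 (0.20 without overlapping genes). DNAJB1, a co-chaperone known for its induction by heat, rose by 0.64 ± 0.15 and 0.45 ± 0.15, and its difference of -0.19 ± 0.21 was not called. Of 57 genes for folding and quality control in the endoplasmic reticulum, 24 were higher (42.1%) and 10 lower (17.5%, near the 19.9% over all genes tested). At the ends of this list stood SEC24A, a coat protein of export vesicles, at 2.37 ± 0.15, and DERL3, a channel component of the degradation pathway, at -2.19 ± 0.25.

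The list of metallothioneins, small proteins that bind zinc and copper, and of zinc transporters had the highest median of the 49 lists. Of 7 genes tested, 6 had a called difference, higher in SU-DHL6 in each case, and these 6 fell in OCI-LY3 and rose in SU-DHL6. MTF1, the zinc sensor of the list, was the member not called (0.49 ± 0.20), though it was called under total counts, under upper-quartile scaling and when either of 2 single libraries was left out. Since the lines started far apart, the levels need to be read beside the folds. MT2A, a metallothionein of most tissues (ENSG00000125148, chromosome 16, 56608199 to 56609497), was at 938, 1020.3 and 755 CPM in untreated and 88.7, 88.4 and 79.3 CPM in treated OCI-LY3, and at 0.882, 1.12 and 0.939 CPM in untreated and 1.44, 2.38 and 1.76 CPM in treated SU-DHL6. The treated and untreated ranges of OCI-LY3 were far apart, while no SU-DHL6 library exceeded 2.38 CPM, and the difference was 4.32 ± 0.27 (adjusted p = 9.03e-08).

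MT1X, another family member, was at 88.1, 114 and 86.8 CPM in untreated and 19.6, 22.3 and 21.2 CPM in treated OCI-LY3, and at 3.93, 5.03 and 4.70 CPM in untreated and 10.3, 11.9 and 8.23 CPM in treated SU-DHL6. The ranges were separate in both lines, and the difference was 3.35 ± 0.22. MT1F went from 20.3, 22.1 and 20.6 to 5.98, 7.37 and 7.17 CPM in OCI-LY3 and from 1.90, 2.42 and 1.81 to 6.70, 5.41 and 5.88 CPM in SU-DHL6, and the treated ranges of the lines overlapped. MT1E was near 0 in SU-DHL6, at 0, 0 and 0.144 CPM untreated, and fell from 115, 120.3 and 111 to 8.54, 5.34 and 7.70 CPM in OCI-LY3. The zinc transporters moved with them: SLC30A1, which exports zinc from the cell, differed by 2.90 ± 0.20, and SLC39A10, which imports it, by 1.15 ± 0.21. The metallothionein genes are near-identical neighbours on chromosome 16, so reads may be shared among them.

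Metal response elements, the letters TGCACNC or TGCGCNC bound by MTF1, were searched on both strands. They are short and were found in 29.35% of all promoters and 38.3% of those of tested genes, and in 3 of the 5 promoters of this list found in RefSeq. The stretches differ in how many they hold: MT2A (chr16:56608384-56608583, plus strand) has 6 and MT1X (chr16:56682270-56682469, plus strand) has 4 in the 200 bases before the start, shown with the elements in capitals.
MT2A: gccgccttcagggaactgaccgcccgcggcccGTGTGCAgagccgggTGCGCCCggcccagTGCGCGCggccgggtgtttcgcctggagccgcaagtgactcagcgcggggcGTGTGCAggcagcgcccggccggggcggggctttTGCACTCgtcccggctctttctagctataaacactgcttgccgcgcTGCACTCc
MT1X: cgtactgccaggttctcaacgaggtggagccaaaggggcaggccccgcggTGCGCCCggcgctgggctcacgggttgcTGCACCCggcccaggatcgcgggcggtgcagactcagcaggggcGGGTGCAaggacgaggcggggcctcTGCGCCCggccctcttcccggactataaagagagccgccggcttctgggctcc
These 2 were the called members of smallest adjusted p that hold the element in this stretch.

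Targets of the oxidative stress factor NRF2 and genes of sugar breakdown were measured next. HMOX1, heme oxygenase, which breaks down heme (ENSG00000100292, chromosome 22, 35380361 to 35394214), was at 270.0, 264 and 267 CPM in untreated and 55.4, 56.7 and 51.6 CPM in treated OCI-LY3, and at 1.83, 1.55 and 1.52 CPM in untreated and 2.16, 2.70 and 2.99 CPM in treated SU-DHL6. It fell clear of the untreated range in OCI-LY3 and rose from a low level in SU-DHL6, and the difference was 2.97 ± 0.18. SLC7A11, the cystine importer, fell in both lines, by 4.83 ± 0.31 and 2.42 ± 0.25. Of 26 NRF2 targets, 11 were higher (42.3%) and 5 lower (19.2%, near the 19.9% over all genes tested). Their median of 0.67 turned to -0.27 without overlapping genes. Of 38 glycolysis and hypoxia genes, 16 were higher and 4 lower. HK2, hexokinase 2, was at 186, 184 and 186 CPM in untreated and 46.6, 43.5 and 44.99 CPM in treated OCI-LY3, and at 73.9, 73.2 and 69.2 CPM in untreated and 103, 117 and 116 CPM in treated SU-DHL6. The difference was 2.67 ± 0.12, and no ranges overlapped. At the other end, PFKFB2, which makes an activator of phosphofructokinase, rose from 35.2, 31.7 and 32.8 to 179, 175 and 190.2 CPM in OCI-LY3 and was at 3.39, 1.93 and 1.88 and 2.38, 2.38 and 2.67 CPM in SU-DHL6.

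Targets of the amino acid response fell in both lines. Of 36 targets of ATF4, a factor induced when amino acids are short, 32 fell in OCI-LY3 and 33 in SU-DHL6, and the median difference was -0.01, with 8 higher and 12 lower (0.37 under total counts, with 13 and 6). ASNS, asparagine synthetase, fell by 3.55 ± 0.23 and 3.52 ± 0.22, a difference of 0.04 ± 0.29 that was not called. SLC1A4, a carrier of neutral amino acids, was the lowest called member: it rose from 124, 117 and 129 to 224, 399 and 364 CPM in OCI-LY3 and fell from 154, 352 and 354 to 44.9, 46.9 and 43.5 CPM in SU-DHL6, with -4.08 ± 0.43. The highest was ALDH1L2, a mitochondrial folate enzyme, at 6.19 ± 1.22, which fell from 5.15, 6.11 and 4.19 to 0, 0.376 and 0 CPM in OCI-LY3 and was under 1 CPM in every SU-DHL6 library. Its value was 10.25 without the second treated OCI-LY3 library. Clustered histone genes, many of them with polyadenylated forms outside S phase, rose in both lines as well, 26 and 21 of 38.

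Cholesterol and respiratory genes with a called difference were more often lower than higher in SU-DHL6 under TMM. Over all genes tested, 19.9% were lower and 17.0% higher. Of 31 genes of cholesterol synthesis and uptake, 15 were lower in SU-DHL6 (48.4%) and 3 higher (9.68%), with a median of -0.58. Under total counts 9 were lower and 6 higher (median -0.20). Genes of fatty acid synthesis were mixed, with 7 of 21 lower and 6 higher (median -0.19, and 0.17 under total counts). FDFT1, squalene synthase, rose from 267, 257 and 274 to 503, 472 and 514 CPM in OCI-LY3 and fell from 245, 267 and 264 to 147, 117 and 116 CPM in SU-DHL6, without overlap. Among called cholesterol genes with no group of 3 counts or fewer it had the lowest value, -1.93 ± 0.14. Of 81 nuclear-encoded respiratory chain genes, 28 were lower (34.6%) and 3 higher (3.70%), with a median of -0.32. Under total counts 9 were lower and 13 higher (median 0.05), and with GC and length offsets 26 and 7 (median -0.26). Among genes whose average log2 CPM was 3 or more in both lines, 2316 of 8395 were lower and 1712 higher. Of 51 autophagy and lysosome genes, 16 were lower (31.4%) and 4 higher (7.84%), with a median of -0.30. Under total counts 10 were lower and 11 higher (median 0.08). GABARAP, an autophagosome protein, had the lowest called value of this list, -1.97 ± 0.23.

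The B cell programme differed gene by gene. Of 31 genes of MHC presentation, 19 were lower in SU-DHL6 and 1 higher. HLA-DRA, the alpha chain of HLA-DR, was at 897, 1042 and 959 CPM in untreated and 1699, 1848 and 2104 CPM in treated OCI-LY3, and at 2106, 2147 and 2212 CPM in untreated and 2203, 1679 and 1757 CPM in treated SU-DHL6. Treated OCI-LY3 libraries rose above all untreated ones, the SU-DHL6 ranges overlapped, and the difference was -1.16 ± 0.16. CD74, the invariant chain, did the same with -1.04 ± 0.22, while CIITA, the activator of both genes, fell in both lines (0.01 ± 0.15, not called).

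Of 34 NF-kB genes, 16 were lower in SU-DHL6 and 7 higher (median -0.61). LTB, lymphotoxin beta, rose from 110.0, 126 and 119.6 to 477, 480.1 and 387 CPM in OCI-LY3 and fell from 159, 185 and 279 to 95.8, 74.7 and 83.4 CPM in SU-DHL6. NFKBIA, an inhibitor of NF-kB, fell by 0.71 ± 0.14 in SU-DHL6 and changed by 0.01 ± 0.14 in OCI-LY3, which was not called, and its called difference of -0.72 ± 0.20 was lost under total counts. BCL2A1, a survival gene and NF-kB target, was the lowest of the list at -2.40 ± 0.28, with SU-DHL6 under 3 CPM throughout. Of 40 genes of B-cell receptor signalling, 16 were lower and 7 higher, with a median of -0.37 that became 0.01 under total counts. Among called members with no group of 3 counts or fewer, VAV3, a guanine nucleotide exchange factor, was lowest at -3.25 ± 0.27. PRKCB, a member with such a group, had -4.83.

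Of 41 genes of the germinal centre and plasma cell programme, 18 were lower in SU-DHL6 and 5 higher. JCHAIN, the joining chain of secreted IgM and IgA, was at 0.697, 0.421 and 0.514 CPM in untreated and 32.6, 33.01 and 34.1 CPM in treated OCI-LY3, and at 185, 160.3 and 161 CPM in untreated and 278, 300.2 and 214 CPM in treated SU-DHL6. All ranges were separate, and the log2 difference of -5.26 ± 0.24 (adjusted p = 7.59e-09) rests on the rise from a level under 1 CPM in OCI-LY3, whereas the gain in CPM was larger in SU-DHL6. TNFRSF17, the plasma cell receptor BCMA, rose in OCI-LY3 and fell in SU-DHL6 (-3.33 ± 0.32). IRF4, a factor of plasma cells and of the activated type of this lymphoma, fell by 0.99 ± 0.08 in OCI-LY3 and 0.51 ± 0.08 in SU-DHL6, a difference of 0.48 ± 0.11. BCL6, the repressor of germinal centre cells, was not called in either line, and its difference was 0.03 ± 0.12. PRDM1, the plasma cell regulator, was not called either (-0.89 ± 0.40) and was at no more than 0.339 CPM in SU-DHL6. Interferon-stimulated genes were divided, with 9 of 44 higher and 7 lower. OAS1, which makes the activator of RNase L, was the lowest at -2.66 ± 0.20.

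Among genes whose average log2 CPM was 3 or more in both lines, 4028 of 8395 were called (48.0%), 1712 higher and 2316 lower in SU-DHL6. The lowest of these was ID3. ID3, an inhibitor that blocks DNA binding by helix-loop-helix factors, was at 18.2, 20.4 and 17.6 CPM in untreated and 147, 154 and 138 CPM in treated OCI-LY3, and at 57.5, 79.1 and 77.9 CPM in untreated and 26.9, 23.2 and 25.8 CPM in treated SU-DHL6. Treated and untreated ranges were separate in both lines, with a rise in OCI-LY3, a fall in SU-DHL6 and a difference of -4.46 ± 0.18 (adjusted p = 4.63e-09). KIF21B, a kinesin, changed in SU-DHL6, from 37.6, 49.5 and 42.98 to 1.66, 2.43 and 2.09 CPM, and was at 694, 662 and 703 and 644, 715 and 506 CPM in OCI-LY3, where ranges overlapped. PNOC, the precursor of nociceptin, was the reverse case, rising from 250.3, 250.5 and 239 to 2402, 2301 and 2472 CPM in OCI-LY3 and staying at 12.7, 14.05 and 13.1 and 15.01, 11.3 and 12.6 CPM in SU-DHL6. RIMS3, a synaptic vesicle protein, differed by -3.41 ± 0.16, with opposite directions in the lines. High values included those of GOLGA4, a Golgi tether (3.34 ± 0.35), and AKAP9, a large scaffold of the Golgi and centrosome (2.86 ± 0.33). AKAP9 rose from 16.1, 10.6 and 14.7 to 51.2, 86.7 and 61.3 CPM in SU-DHL6 without a call in OCI-LY3.

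Larger fitted values than these come mostly from genes that 1 line barely expressed. Of the 24 largest differences whose average log2 CPM was 3 or more in at least 1 line, 16 have a group with 3 counts or fewer in its 3 libraries, so their fitted values set no bound. FCRL2, an Fc receptor relative of B cells, is an example: it went from 0.905, 1.05 and 0.882 CPM to 0 in all treated OCI-LY3 libraries and was at 122, 103 and 99.6 and 82.3, 90.1 and 94.4 CPM in SU-DHL6. Of all called genes, 196 have such a group, of 1662 tested genes that do. Overlap with other genes is common as well, in 68.8% of called genes and 69.4% of all tested genes, and the strand setting of the counting is not given in the sources used here.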

How the data were processed

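RNA was sequenced from 12 libraries, and the authors deposited whole-number read counts and FPKM values per gene, per the file headers. The submitters' processing notes name mouse builds, but 58039 of 58302 identifiers are in human GENCODE release 29 (GRCh38), 97.6% of them at the same coordinates. The aligner, counting program and strandedness were not given in the sources used here. Deposited FPKM values followed from the counts and were not tested.

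Counts were fitted in R 4.3.3 with edgeR 4.0.16 (filterByExpr, TMM, 1 robust quasi-likelihood model of the 4 groups), with the contrast of SU-DHL6 response minus OCI-LY3 response and each line's own response. P-values were adjusted by Benjamini-Hochberg over all genes tested, and genes under 0.05 are called. SEs are the log2 value divided by the square root of F. The fit was tested on simulated counts. DESeq2 1.42.0, limma 3.58.1, other scalings, filters and thresholds, a replicate block and leaving out libraries were alternatives.

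The members and lists were chosen with earlier results of these data known. Named genes are the 12 largest separated differences per direction, the 8 largest per direction among genes called in opposite directions, for each list up to 3 genes per direction by adjusted p, and 11 fixed genes. Some of these genes and 1 list are not reported here. Added after seeing the data were the 12 largest per direction whose average log2 CPM was 3 or more in both lines, the lowest and highest called member of each list, the metal response element and some single list members. The lowest and highest called members were taken among genes with no group of 3 counts or fewer. Promoters are from RefSeq (GRCh38.p14), matched by symbol for 10490 tested genes.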

Additional observations from a re-analysis of the deposited data

Results flagged for a closer look

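A total of 16 genes stood out because they were called in opposite directions in the lines: the 8 of largest difference in each direction, with every treated-minus-untreated contrast of libraries in 1 line above every such contrast in the other. A called difference in edgeR's quasi-likelihood test was part of the rule that picked them, so that all 16 were called is no result. These genes were picked for their size, so their directions are no independent sign of stability.

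OCI-LY3 fell and SU-DHL6 rose for 8 of them. The metallothioneins MT1E, MT2A and MT1X had differences of 6.20 ± 0.79, 4.32 ± 0.27 and 3.35 ± 0.22. ADIRF-AS1, an antisense transcript whose reads cannot be told apart from those of its partner without strand, had 3.83 ± 0.24. DUSP15, a phosphatase, had 3.67 ± 0.18, going from 119, 117 and 134 to 53.5, 51.3 and 45.4 CPM in OCI-LY3 and from 2.37, 3.11 and 2.82 to 15.4, 15.1 and 12.7 CPM in SU-DHL6. BHLHE40, a transcription factor of the clock and of hypoxia, had 3.57 ± 0.15, going from 94.5, 87.3 and 91.1 to 15.4, 15.1 and 14.9 CPM in OCI-LY3 and from 34.6, 42.9 and 43.8 to 77.7, 80.8 and 81.4 CPM in SU-DHL6. GAREM2, an adaptor, had 3.50 ± 0.33, and DLL3, a Notch ligand, 3.43 ± 0.42, both with OCI-LY3 under 4 CPM in every library.

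OCI-LY3 rose and SU-DHL6 fell for the other 8. TNFSF8, the ligand of CD30, had -7.60 ± 0.47, from 0.209, 0.140 and 0 to 9.55, 8.42 and 11.5 CPM in OCI-LY3 and from 15.1, 13.5 and 9.97 to 4.87, 5.68 and 4.87 CPM in SU-DHL6. KCNJ11, a potassium channel subunit, had -5.99 ± 0.66, with untreated OCI-LY3 libraries at 4.04, 6.32 and 0.735 CPM. The cytoskeletal genes ADD2 and GAS7 had -6.80 ± 1.25 and -5.99 ± 0.92, and the kinase genes DAPK2 and PRKCB -5.86 ± 1.31 and -4.83 ± 1.32. CLDN5, a tight junction protein, had -5.999 ± 1.03 and rose from 40.5, 44.4 and 43.3 to 430.3, 405 and 318 CPM in OCI-LY3. SMCO4 had -4.92 ± 0.82. MT1E, ADD2, CLDN5, GAS7, DAPK2, SMCO4 and PRKCB have a group of 3 counts or fewer, so that their fitted values set no bound.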

How the results depend on the processing

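The 26 settings were compared for 112 genes given with a difference of responses, of which 103 were called. None of the 103 changed sign in a setting that tested it. Some settings tested fewer: 46 without overlapping genes, 85 with the filter on level and 99 without genes over 2-fold apart between replicates. The 1.5-fold test and the adjusted p under 0.01 use the main fit, so no sign could change there. Under total counts CXCR4, FTSJ3, IPO13, NFKBIA and RPL9 lost the call, and NFKBIA also with GC and length offsets (adjusted p = 0.0547). Leaving out 1 library ended 2 calls, RPL9 without the third untreated SU-DHL6 library (-0.39) and PRKCB without the first treated OCI-LY3 library (-3.60), and moved SMCO4 from -4.92 to -7.81 without the first treated SU-DHL6 library and ALDH1L2 from 6.19 to 10.25 without the second treated OCI-LY3 library. Against a 1.5-fold difference CXCR4, FTSJ3, IPO13, NFKBIA, RPL9, CSE1L, IRF4 and XPO1 lost it, and at an adjusted p under 0.01 IPO13, NFKBIA, PRKCB and RPL9. Of genes not called, MYC was called, at 3.70, without the second treated OCI-LY3 library, MTF1 at 0.57 without the third untreated OCI-LY3 or the first treated SU-DHL6 library, and MTF1 (0.87), BCL2 (0.46), BCL6 (0.41) and CIITA (0.39) under total counts.

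Higher and lower genes in SU-DHL6 (2798 and 3274) numbered 4891 and 1817 under total counts, 1220 and 1548 in a test against a 1.5-fold difference, and 994 and 950 without overlapping genes, where fewer genes are tested. At an adjusted p under 0.01, 1727 were higher. Differences of at least 1 on the log2 scale numbered 1813 among genes of an average log2 CPM of 3 or more, and 1056 without overlapping genes. In OCI-LY3, 1350 genes rose and 1450 fell against a 1.5-fold difference, 1176 and 1261 without overlapping genes, and 2397 fell with this filter on level. In SU-DHL6, 5451 rose and 2367 fell under total counts, 964 and 1510 against a 1.5-fold difference, 1194 and 1126 without overlapping genes, and 2155 rose at an adjusted p under 0.01. Without 1 library each, the counts ranged from 2380 to 3147 higher, 2642 to 3536 lower, 2993 to 3699 of at least 1, 3167 to 3956 risen and 3126 to 3936 fallen in OCI-LY3, and 2698 to 3521 risen and 3079 to 3924 fallen in SU-DHL6. RLE factors gave 2728 and 3349, DESeq2 2775 and 3463, and limma-voom 2913 and 3379.

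The replicate numbers pair no samples (same-number correlations of deviations at most 0.05, and -0.12 for number 1 of SU-DHL6), and with the number within each line as a replicate block 2408 genes were higher and 2808 lower. List medians that changed sign under total counts were those of cyclins (0.13), translation factors (0.24), autophagy (0.0830), fatty acid synthesis (0.17), the citric acid cycle (0.12), the respiratory chain (0.0534), B-cell receptor signalling (0.0125), XPO1 and the Ran cycle (0.23), nucleotide synthesis (0.35), homologous recombination (0.25), mitochondrial ribosomal proteins (0.22), ATF4 targets (0.37) and the FOXO and PI3K list (0.23), where the median of all genes tested moved from -0.02 to 0.35. Without overlapping genes the kinetochore list (-0.19), condensin and cohesin (-0.20), NRF2 targets (-0.27) and the FOXO and PI3K list (0.97) changed sign, among others nearer 0, and with the filter on level fatty acid synthesis (0.26) did. Other lists with a median near 0 changed sign under single settings, among them the interferon-stimulated genes (-0.10 with DESeq2 and -0.17 with limma-voom). Genes not called, near 0, changed sign as well: ASNS (-0.21 to 0.32), BCL6 (-0.0398 to 0.0761), CIITA (-0.0973 to 0.0737) and FBL (-0.20 to 0.20) without 1 library each, BCL2 (-0.0303) and DNAJB1 (0.0241) with GC and length offsets, DNAJB1 (0.19) under total counts, and CIITA with RLE factors (-0.00956), DESeq2 (-0.00957) and GC and length offsets (-0.12). The cause of these changes was not tested. Counts were also simulated for this comparison over 16474 genes. In them, 52% of true differences of 1 and 92% of those of 2 on the log2 scale were called. Whether these shares hold for the deposited counts, where 36.9% of genes were called, was not tested. A missing call for a small difference therefore says little.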

Other observations

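Several functional groups outside the comparisons above had differences in either direction. Homing and adhesion genes of lymphocytes were lower in SU-DHL6 for 16 of 33 and higher for 6. Among them CXCR4, the receptor that holds B cells in the dark zone of germinal centres, rose by 0.31 ± 0.10 in OCI-LY3 and fell by 0.41 ± 0.09 in SU-DHL6, a difference of -0.72 ± 0.13 whose call was lost under total counts. GSN, which severs actin filaments, had the lowest called value among members with no group of 3 counts or fewer, -2.15 ± 0.16. In the list of Toll-like receptors and the MYD88 pathway, 12 of 20 rose in SU-DHL6 and 8 in OCI-LY3, and 3 were higher in SU-DHL6 and 4 lower, near the shares over all genes tested. CD180, which resembles Toll-like receptors, rose in both lines and by more in OCI-LY3 (-3.55 ± 0.17), and IRF5, a factor downstream of these receptors, stood at the other end (1.84 ± 0.19). IL4R, the receptor of interleukin 4, rose from 6.83, 8.07 and 9.11 to 41.8, 45.8 and 14.9 CPM in OCI-LY3 and fell from 226, 253 and 261 to 38.6, 88.3 and 92.5 CPM in SU-DHL6, with the third treated OCI-LY3 library and the first treated SU-DHL6 library lower than their replicates.

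Zinc finger genes were the largest list, and 86 of 436 were higher in SU-DHL6 (19.7%) against 48 lower (11.01%), with a median of 0.21. Chromatin regulators had 15 of 41 higher and 5 lower, with TET2, which oxidises methylated cytosine, at 1.79 ± 0.23 and the DNA methyltransferase DNMT3B at -2.10 ± 0.34. Of the 79 mitochondrial ribosomal proteins, 22 were lower (27.8%) and 5 higher (6.33%), against 19.9% and 17.0% over all genes tested. Among genes whose average log2 CPM was 3 or more in both lines, 2316 of 8395 were lower and 1712 higher. The list median was -0.17, which turned to 0.22 under total counts, with 8 lower and 21 higher. With GC and length offsets it was -0.01, with 23 lower and 5 higher. The proteasome (13 higher and 8 lower of 49), the aminoacyl-tRNA synthetases (11 and 7 of 39) and the genes of homologous recombination (10 and 11 of 37) were mixed, with medians of 0.14, 0.02 and -0.12, the last of which turned to 0.25 under total counts (16 higher and 8 lower).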
